A study of Homo sapiens
Mus musculus with 25 samples.

Results

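The genes of the distal long arm of chromosome 6, AFDN among them, were described in xenografts of HT29, an established cell line from a human colorectal cancer. They were taken by position: every gene of the count table that starts between AL049844.1 (start 143807092, GRCh38) and PDCD2 (start 170575295), had at least 10 counts in 4 or more of the 25 tumours and was not named LINC. This gave 127 genes of the 38128 in the table. The stretch of the rule, which runs slightly past these genes, holds 319 genes, of which 188 were under the count minimum and 4 were named LINC. In all, 125 of the 127 passed the filter on low counts and were tested among 18823 genes. AL078581.2 and TTLL2 did not pass, with at most 16 and 15 counts in a tumour. The stretch had been chosen by the fold changes of its genes in these same tumours, which shifted together, so the size of that shift, and every fold change that contains it, is given here as a description. Counts of such fold changes past the threshold stand beside the share of all tested genes, and nothing is read from them. The test reported for single genes was whether they departed from the shift of their tumour.

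Tumours grew under the skin of nude mice that drank doxycycline, as the study's methods describe for all groups but PTPRK.C1089S, whose tumours the labels list as doxycycline-treated xenografts too. The groups were WT (5 tumours, wild-type HT29), PTPRK KO (5, PTPRK knockout with the fluorescent protein tGFP), PTPRK (6, knockout with PTPRK put back), PTPRK.RQ (4, knockout with the R1095Q form) and PTPRK.C1089S (5, knockout with the C1089S form). Both forms change residues of the catalytic motif of the phosphatase. The knockout was a sorted pool of edited cells, each construct was delivered by lentivirus and switched on by doxycycline, and all tumours of a group came from a single cell line, so a difference between groups and a difference between cell lines cannot be told apart.

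PTPRK is a receptor tyrosine phosphatase of cell contacts. Afadin, the product of AFDN, is an actin-binding scaffold that ties nectins and the cadherin-catenin system to the cytoskeleton, and it has been described as a PTPRK substrate. Copy number of the arm was not measured in these files. The distal 6q genes also include ezrin (EZR), which links the membrane to cortical actin, ligands of the immune receptor NKG2D, proteasome, chaperone and mitochondrial genes, and the kinase LATS1 of the Hippo pathway.

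Library totals were 43.7 to 59.4 M counts. PTPRK itself lies on 6q outside the stretch (chr6:127968785-128520616). It was at 315 ± 13.2 CPM (SD, n = 5) in WT and 45.2 ± 19.2 (n = 5) in PTPRK KO. With a construct it was at 1850 ± 354 (n = 6) in PTPRK, 1300 ± 308 (n = 4) in PTPRK.RQ and 1510 ± 269 (n = 5) in PTPRK.C1089S. It was thus lowest in the knockout and above WT in every group that carries a PTPRK construct. CPM are counts per M counts of the tested genes of the library, with that total scaled by TMM normalization. All 8 epithelial markers checked were above 1 CPM on average in every group. The 12 stromal and blood markers were counted as human genes in tumours grown in mice, so they do not measure the mouse host cells. They summed to 2230 to 3160 CPM per tumour, nearly all of it LYZ, a lysozyme gene. Without LYZ the sum was 50.5 to 80.1 CPM over all tumours and 59 to 79.3 CPM in PTPRK.RQ. Most of this was CD68, with group means of 43.5 to 53.4 CPM. LUM had group means of 4.5 to 8.06 CPM and COL1A1 of 4.05 to 9.29 CPM, while COL1A2, COL3A1, DCN and PTPRC were at or near 0. PECAM1 averaged 1.19 CPM in PTPRK KO, 1.97 in WT and 3.22 to 4.85 in the other groups. LYZ itself was at 2170 to 2440 CPM in PTPRK.RQ against 2330 to 3100 CPM elsewhere, and its part in the results below was not tested.

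The shift of a tumour was taken as the median, over the 125 tested genes, of the log2 CPM minus the WT mean of the same gene. It was −0.02 to 0.06 in the WT tumours, 0.13 to 0.30 in PTPRK KO, −0.13 to 0.14 in PTPRK, −0.08 to 0.06 in PTPRK.C1089S and −0.49 to −0.43 in PTPRK.RQ. The 4 PTPRK.RQ tumours were thus below the other 21 and close to each other. Their mean shift was −0.46 ± 0.023 (SD, n = 4), a level 0.729 times that in WT. The PTPRK KO tumours averaged 0.24 ± 0.066 (n = 5), or 1.18 times WT, and all 5 lay above the WT tumours, while replicate 4 of PTPRK KO, at 0.13, was level with the highest PTPRK tumour, at 0.14. PTPRK averaged 0.01 ± 0.11 (n = 6) and PTPRK.C1089S 0.01 ± 0.054 (n = 5), so both overlapped WT. Between 96 and 108 of the 125 genes lay below their WT mean in each PTPRK.RQ tumour, and 23 to 38 in each PTPRK KO tumour. In a bulk tumour, fewer cells of a type and less RNA per cell cannot be told apart.

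**Figure D1:**
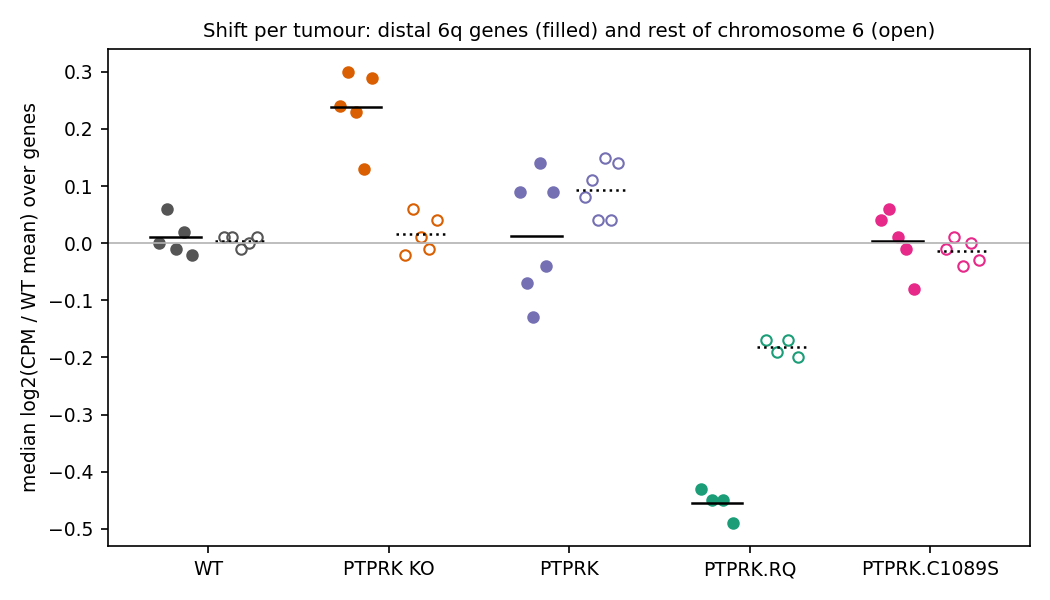
Each point is 1 tumour. The vertical axis is the median log2 ratio of CPM to the WT mean over the 125 distal 6q genes (filled, solid line at the group mean) or over the rest of chromosome 6 (open, dotted line at the group mean). The rest is the 819 other tested genes without PTPRK and PTPRK-AS1. The filled PTPRK.RQ points lie between −0.49 and −0.43 and the filled PTPRK KO points between 0.13 and 0.30.

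The rest of chromosome 6 did not share the PTPRK KO shift and shared a part of the PTPRK.RQ shift. Of the 819 other tested genes of the chromosome, PTPRK and its antisense partner PTPRK-AS1 were left out of this median. Over the others the PTPRK KO tumours were at −0.02 to 0.06, against −0.01 to 0.01 in WT. The PTPRK.RQ tumours were at −0.20 to −0.17. The distal 6q genes were 0.28 ± 0.013 (SD, n = 4) lower on the log2 scale than the rest of the chromosome in PTPRK.RQ, a difference of −0.29 to −0.26 in each tumour. They were 0.22 ± 0.047 (n = 5) higher than it in PTPRK KO. In PTPRK the rest of the chromosome was at 0.04 to 0.15, above every WT tumour. The distal 6q genes differed from it there by −0.08 ± 0.083 (n = 6).

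In windows of 40 consecutive tested genes from the end of the short arm to the end of the long arm, the PTPRK.RQ mean was −0.30 to −0.47 in 7 consecutive windows of the short arm, from PPP1R11 to AL136131.3. It returned to 0.08 in the window that holds PTPRK. It then went from −0.09 in the window from CCN2 to ABRACL, just before the stretch, to −0.23, −0.42, −0.58 and −0.69 in the last windows. A lower level in PTPRK.RQ was therefore not particular to distal 6q, and the same short arm windows were also below 0 in PTPRK, at −0.26 to −0.06, and in PTPRK.C1089S, at −0.19 to −0.10. The first window of the short arm was at −0.25 in PTPRK.RQ. The PTPRK KO mean was highest, at 0.39, in the last window, which ends with PDCD2. It was also 0.08 to 0.12 in the consecutive windows from RWDD2A to ENPP1, before the stretch. Of these, in the window from MMS22L to SMPD2 every PTPRK KO tumour (0.081 to 0.198) lay above every WT tumour (−0.039 to 0.031). In the rest of this run the tumours of both groups overlapped. In the other windows without distal 6q genes the PTPRK KO mean was −0.09 to 0.08.

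**Figure D2:**
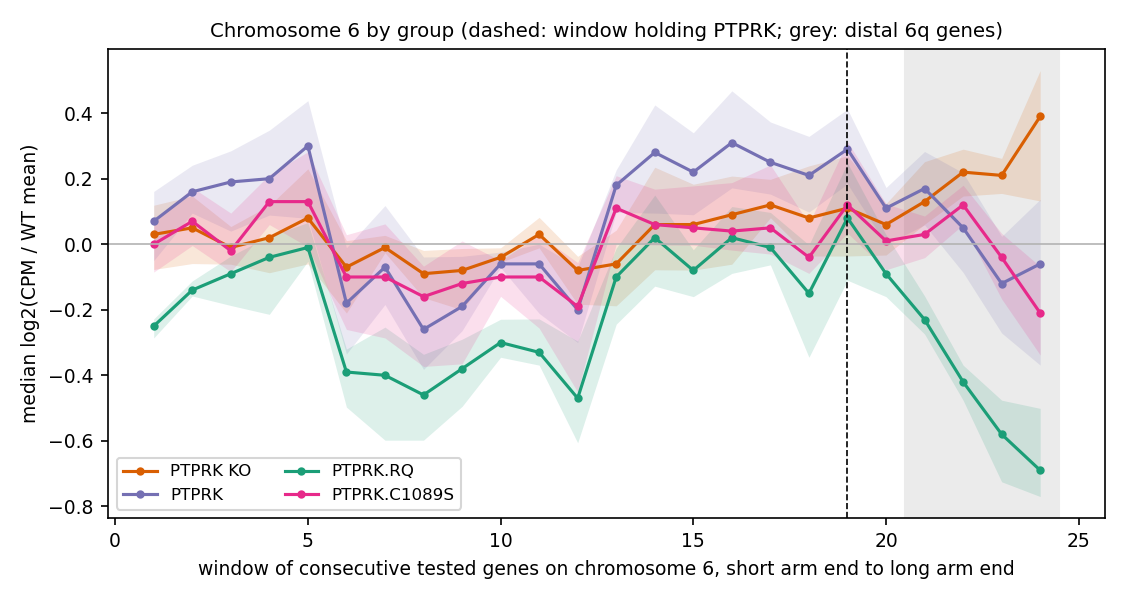
Median log2 ratio of CPM to the WT mean in 24 windows of consecutive tested genes along chromosome 6 (horizontal axis, window number), by group, with lines for group means and bands from the lowest to the highest tumour. The PTPRK.RQ line is low in the short arm windows 6 to 12 and again, down to −0.69, in the shaded distal windows, where the PTPRK KO line rises to 0.39.

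The shift was not uniform inside the stretch either. The genes were cut by position into 10 consecutive blocks of 12 or 13. In PTPRK.RQ relative to PTPRK KO the block median of the log2 fold changes was −0.40 in the first block (AL049844.1 to STXBP5), −0.59 in the second and −0.29 in the third (AL355312.2 to PPP1R14C, which contains the NKG2D ligands). From the fifth to the eighth block it was −0.92 to −0.71. In the last 2 blocks it was −1.24 (Z94721.3 to THBS2, which contains AFDN) and −1.04 (AL031315.1 to PDCD2). The genes nearest the end of the arm were thus lower by more than those at its start. PTPRK KO against WT followed the reverse order, with 0.51 and 0.36 in the last 2 blocks and 0.00 to 0.28 in the others. The third block stood apart in PTPRK.C1089S: it was 0.41 ± 0.053 (SD, n = 5) above WT, while the last 2 blocks were 0.24 ± 0.16 and 0.21 ± 0.10 below it. In PTPRK the third block was 0.22 above WT, close to the first 2 blocks, at 0.17 and 0.19. Relative to PTPRK KO it was the highest block in PTPRK too, at 0.20, with −0.46 to 0.04 in the others.

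Over all 125 genes, the median log2 fold change of PTPRK KO against WT was 0.22, with 0.01 over all tested genes and 0.00 over the rest of chromosome 6. At an adjusted p under 0.05, 10 of the 125 genes passed as higher and 1, AL360169.3, as lower, where 0.776% and 1.23% of all tested genes passed. The 10 were GINM1, ARMT1, RGS17, WTAP, Z94721.2, AFDN, C6orf120, PHF10, PSMB1 and PDCD2, of which 5 lie at the end of the arm, from AFDN onwards. AFDN no longer passed when any of 14 of the 25 tumours was left out. The count of 11 was 3 to 21 over the alternatives, with the fewest when PTPRK KO replicate 2 was left out and the most with DESeq2.

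PTPRK.RQ against PTPRK KO was the widest contrast. Its median log2 fold change was −0.71, against 0.03 over all tested genes and −0.21 over the rest of chromosome 6. Of the 125 genes, 88 passed as lower and 2 as higher, where 9.68% and 9.46% of all tested genes passed. ULBP2 and CCDC170 were the 2 that were higher. The tumours of the 2 groups did not overlap for 73 genes that were lower and 2 that were higher, beside 8% and 7.35% of all tested genes. Since the stretch was chosen for this contrast, nothing is read from these shares.

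The medians of the other contrasts ran from −0.46 to 0.47. PTPRK against PTPRK KO had a median of −0.25 (0.02 over all tested genes), with 9 genes higher and 42 lower, beside 14.1% and 14.5% of all tested genes. PTPRK.C1089S against PTPRK KO had a median of −0.24 (0.00), with 5 higher and 40 lower, beside 8.89% and 7.35%. PTPRK.RQ against PTPRK had a median of −0.46 (0.01), with 55 lower, beside 1.84%, and no gene higher, beside 1.54%. PTPRK.C1089S against PTPRK.RQ had a median of 0.47 (−0.01), with 54 higher, beside 2.77%, and no gene lower, beside 2.16%. PTPRK.C1089S against PTPRK had a median of 0.01 (−0.01), with 10 higher and 5 lower, beside 7.49% and 5.76%, shares near those of all genes. Contrasts with the same control group share its tumours, so their values are only set side by side. Against all other 21 tumours at once, 37 of the 125 genes were lower in every PTPRK.RQ tumour, beside 0.388% of all tested genes, and no gene was higher, beside 0.181%.

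AFDN (ENSG00000130396, chr6:167826922-167972023, plus strand, protein-coding) showed the pattern of the end of the arm. In WT it was at 188, 205, 182, 193 and 175 CPM. In PTPRK KO it was at 245, 233, 245, 206 and 207 CPM, all above WT. In PTPRK it was at 166 CPM at the lowest, 175 at the median and 195 at the highest. In PTPRK.C1089S it was at 146, 157, 151, 185 and 168 CPM, and only the tumour at 185 CPM lay within the range of WT. In PTPRK.RQ it was at 118, 104, 113 and 102 CPM, below every other tumour. On the log2 scale the PTPRK.RQ tumours were 1.06 ± 0.079 (SE) below PTPRK KO, 0.48 times its level, and 0.70 ± 0.076 below PTPRK. PTPRK.C1089S was 0.49 ± 0.073 below PTPRK KO and 0.57 ± 0.078 above PTPRK.RQ, and PTPRK KO was 0.27 ± 0.073 above WT. PTPRK was lower than PTPRK KO too, with a log2 fold change of −0.39 to −0.33 when 1 tumour was left out.

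Its neighbours showed values of the same size. PSMB1, a subunit of the proteasome core at the end of the arm, was at 136 to 159 CPM in WT, 171 to 198 in PTPRK KO, 114 to 141 in PTPRK, 122 to 158 in PTPRK.C1089S and 87.8 to 92.8 in PTPRK.RQ. PDCD2, which takes part in ribosome assembly, was at 62.8 to 68.4 CPM in WT, 65.9 to 83.8 in PTPRK KO, 47.7 to 58.2 in PTPRK, 49.2 to 52.7 in PTPRK.C1089S and 36.3 to 38.7 in PTPRK.RQ. For both, as for AFDN, no PTPRK.RQ tumour reached the lowest tumour of any other group. Relative to PTPRK KO, the log2 fold change in PTPRK.RQ was −1.05 ± 0.076 for PSMB1 and −1.06 ± 0.073 for PDCD2, against −1.06 for AFDN. It was −1.01 ± 0.094 for C6orf120, −0.97 ± 0.14 for CEP43, a centrosome gene, −0.90 ± 0.087 for PHF10, a subunit of a SWI/SNF chromatin remodeller, and −0.93 ± 0.085 for RNASET2, an RNase.

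**Figure D3:**
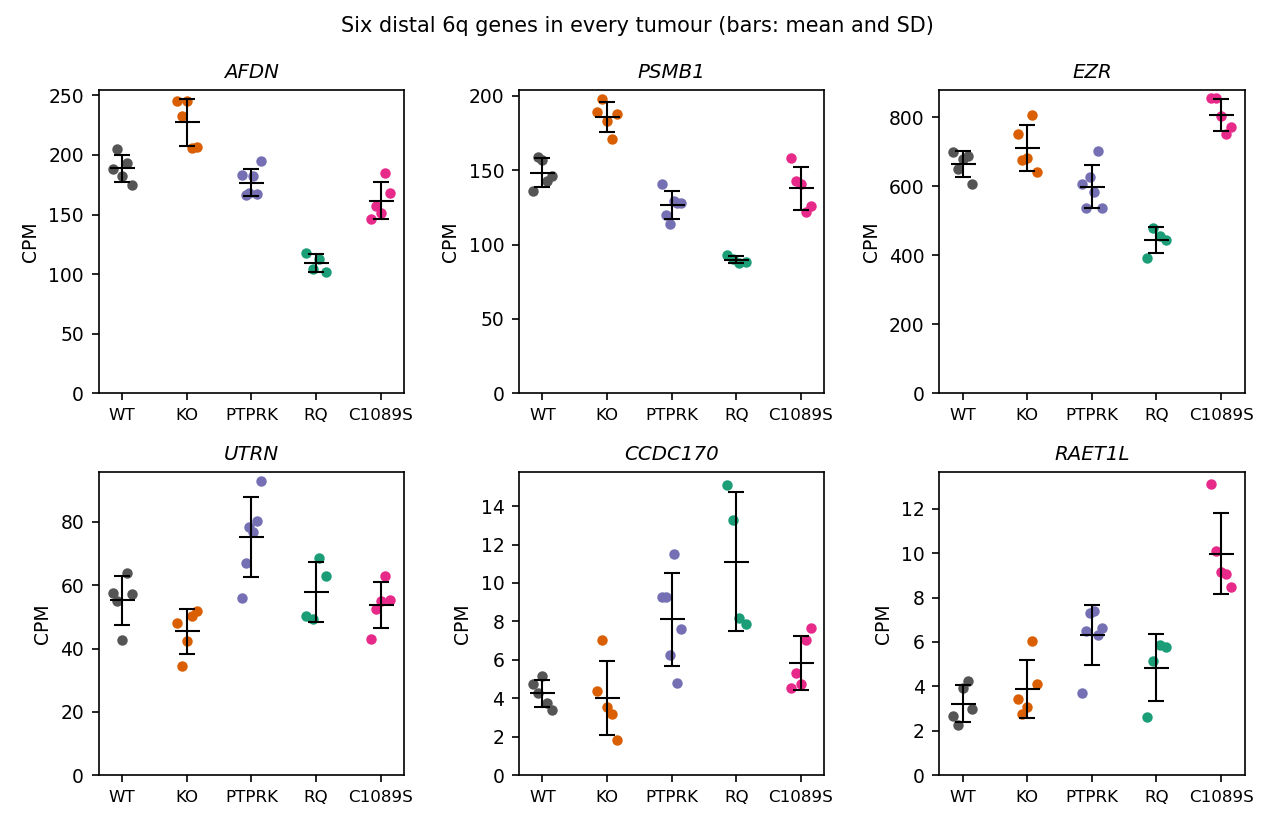
CPM (vertical axis, from 0) of AFDN, PSMB1, EZR, UTRN, CCDC170 and RAET1L in every tumour, by group, with bars for the mean and SD. In PTPRK.RQ, AFDN lies between 102 and 118 CPM and PSMB1 between 87.8 and 92.8 CPM, below every other tumour, whereas CCDC170 is at 7.89 to 15.1 CPM and overlaps PTPRK.

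How far AFDN departed from its surroundings depended on how the shift was measured. Against the shift of all 125 genes, AFDN was 0.36 ± 0.076 lower in PTPRK.RQ than in PTPRK KO (adjusted p = 0.0011, edgeR quasi-likelihood test with Benjamini-Hochberg adjustment over all genes) and 0.25 ± 0.071 lower in PTPRK.C1089S than in PTPRK KO (adjusted p = 0.0135). Against its 20 nearest genes these departures were 0.00 ± 0.09 (adjusted p = 0.999) and 0.02 ± 0.085 (adjusted p = 0.924). Many of these neighbours are RNAs of low count, whose log2 values move with the pseudocount. With a pseudocount of 0.5 CPM, under which all results were first viewed, in place of the 0.01 CPM used here, AFDN in PTPRK.RQ against PTPRK KO was −0.46 from all genes (edgeR adjusted p = 5.84e-05) and −0.36 from the 20 nearest (edgeR adjusted p = 6.85e-04). With the 20 nearest genes limited to those of a mean log2 CPM of at least 2, a check added after these differences were seen, it was −0.20 (edgeR adjusted p = 0.0607) with 0.01 CPM and −0.23 (edgeR adjusted p = 0.0295) with 0.5 CPM. The departure of AFDN in PTPRK.RQ thus ranged from −0.46 to 0.00 over these settings, and whether it passed the test turned on them. Against PTPRK, the departure in PTPRK.RQ was −0.23 ± 0.073 (edgeR adjusted p = 0.0919) and passed with 0.5 CPM, at −0.29 (edgeR adjusted p = 0.0202). In PTPRK against PTPRK KO the departure was −0.14 (edgeR adjusted p = 0.134), and in PTPRK KO against WT it was 0.04 ± 0.071 (edgeR adjusted p = 0.846).

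The genes of proteins that bind afadin or sit at the same junctions, which lie elsewhere in the genome, are given for comparison. Of 16 such genes, 3 passed as higher and 1 as lower in PTPRK.RQ against PTPRK KO, with a median of 0.11, where 9.46% and 9.68% of all tested genes passed. RAP1B, a small GTPase that binds afadin, was 0.44 ± 0.084 higher in PTPRK.RQ than in PTPRK KO, CDH1, E-cadherin, 0.32 ± 0.093 higher, NECTIN1 0.48 ± 0.12 higher and NECTIN2 0.56 ± 0.093 lower (edgeR adjusted p = 4.02e-04, 0.0169, 0.00726 and 7.57e-05). In PTPRK against PTPRK KO, 6 passed as higher and 1 as lower, where 14.1% and 14.5% of all tested genes passed.

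The distal 6q genes were also sorted by function in PTPRK.RQ against PTPRK KO, where 88 of the 125 and 9.68% of all tested genes passed as lower. The counts by function were mostly near the count of the whole stretch and are a description of it, not a result about a function. Of 16 genes of junctions, cortex and cytoskeleton, 12 passed as lower and none as higher, with a median of −0.77. TIAM2, an exchange factor for Rac, was at −0.92 ± 0.10 and SYNJ2, a phosphoinositide phosphatase, at −0.87 ± 0.091. Of 7 genes of protein folding and turnover all passed as lower, with a median of −0.79, among them TCP1, a subunit of the cytosolic chaperonin, at −0.80 ± 0.083. Of 12 mitochondrial and metabolic genes 9 passed as lower, with a median of −0.71. SOD2, the mitochondrial superoxide dismutase, was at −0.91 ± 0.073, and ACAT2, an acetyl-CoA acetyltransferase, at −0.72 ± 0.091. Of 15 genes of transcription, chromatin and RNA 11 passed as lower, with a median of −0.60, among them ARID1B, a SWI/SNF subunit, at −0.67 ± 0.067, and TBP, the TATA-binding protein, at −0.75 ± 0.12. Of 7 tested growth and receptor genes 5 passed as lower, with a median of −0.48, among them IGF2R, the receptor that clears IGF2, at −0.48 ± 0.11. LATS1 was at −0.46 ± 0.11. The 6 NKG2D ligand genes had a median of 0.18, with 1 passing as higher and none as lower. The lists were drawn up with earlier results of these data known.

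**Figure D4:**
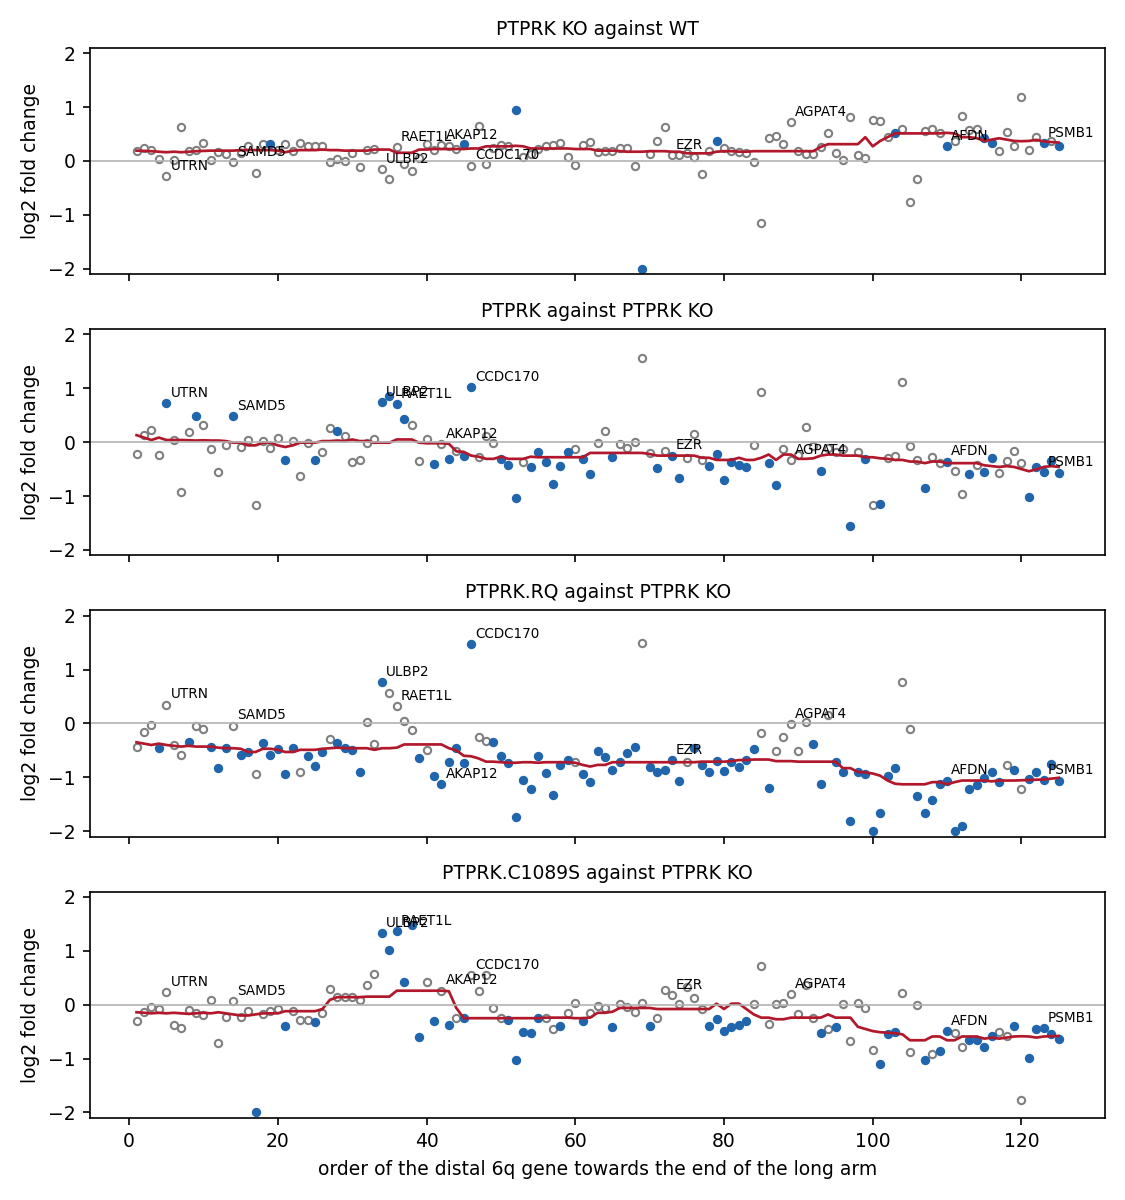
Log2 fold change of each of the 125 genes (vertical axis; points, filled where the adjusted p is under 0.05, drawn at the edge where past 2) in their order towards the end of the long arm, with the running median of 21 genes, or fewer at the ends, as a line, in 4 contrasts. In PTPRK.RQ against PTPRK KO the line lies below 0 throughout and is lowest at the end that holds AFDN and PSMB1, while CCDC170 and ULBP2 lie above 0.

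Departures from the shift of the tumour were tested in the same model with each tumour's shift as an offset. At an adjusted p under 0.05, 2 genes were below the shift in PTPRK KO relative to WT and no gene was above it. Relative to PTPRK KO, 22 genes were above and 15 below the shift in PTPRK, 29.6% of the 125 where 28.5% of all tested genes passed in the same fit. In PTPRK.RQ the counts were 21 above and 14 below, 28% where 18.8% passed. In PTPRK.C1089S they were 13 and 12, 20% where 16.1% passed. PTPRK.RQ had 2 above and none below relative to PTPRK, 1.6% where 2.86% passed. PTPRK.C1089S had 11 above and 5 below relative to PTPRK, 12.8% where 13.3% passed, and 5 above and 5 below relative to PTPRK.RQ, 8% where 4.57% passed. In PTPRK KO relative to WT the share was 1.6% where 1.82% passed. Relative to the 20 nearest genes instead, and in the order of PTPRK KO to WT, then PTPRK, PTPRK.RQ and PTPRK.C1089S to PTPRK KO, then PTPRK.RQ to PTPRK, and PTPRK.C1089S to PTPRK and to PTPRK.RQ, 1, 30, 28, 25, 2, 18 and 7 genes departed, beside 1.82%, 28.4%, 18.7%, 16.1%, 2.86%, 13.3% and 4.52% of all tested genes. Those that departed in the same direction from both, and did so with both pseudocounts, numbered 1, 20, 13, 9, 1, 10 and 5, and the genes described next are mainly of that kind.

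The NKG2D ligands form a cluster of paralogues on 6q, displayed by stressed or transformed cells to natural killer cells and some T cells. ULBP2 was at 1.72 to 3.01 CPM in PTPRK KO, 3.04 to 4.49 in PTPRK, 3.45 to 4.54 in PTPRK.RQ and 4.86 to 7.03 in PTPRK.C1089S, so each of the re-expressing groups lay above every PTPRK KO tumour. In WT it was at 1.59 to 3.22 CPM. Its departure from the shift against PTPRK KO was 0.98 ± 0.18 in PTPRK (edgeR adjusted p = 2.87e-04), 1.45 ± 0.20 in PTPRK.RQ (edgeR adjusted p = 7.51e-06) and 1.57 ± 0.19 in PTPRK.C1089S (edgeR adjusted p = 1.53e-06). RAET1L was at 2.75, 3.07, 3.44, 4.11 and 6.02 CPM in PTPRK KO and at 13.1, 10.1, 9.17, 9.07 and 8.47 in PTPRK.C1089S, without overlap. Its departure there was 1.58 ± 0.24 (edgeR adjusted p = 4.09e-05). ULBP1 and ULBP3 also departed upwards in PTPRK, PTPRK.RQ and PTPRK.C1089S against PTPRK KO (edgeR adjusted p = 0.00157 to 0.00944), while RAET1E and RAET1G did not pass in any of these. The copies are similar in sequence, and the study discarded reads of low mapping quality. Reads that match several copies may thus have been lost, and the levels are uncertain to that extent.

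UTRN and SAMD5, in the first part of the stretch, stayed above the shift. UTRN, utrophin, a large actin-binding protein related to dystrophin, was at 34.5 to 52 CPM in PTPRK KO, 55.9 to 92.8 in PTPRK, 49.5 to 68.5 in PTPRK.RQ, 43 to 62.9 in PTPRK.C1089S and 42.6 to 63.9 in WT. All PTPRK tumours lay above all PTPRK KO tumours, and the PTPRK.RQ tumours overlapped PTPRK KO. The departure was 0.95 ± 0.14 in PTPRK (edgeR adjusted p = 2.76e-05) and 1.04 ± 0.15 in PTPRK.RQ (edgeR adjusted p = 2.29e-05), both relative to the knockout. SAMD5 was at 33.6 to 48.7 CPM in PTPRK KO, 48.4 to 70.9 in PTPRK and 33.8 to 45.1 in PTPRK.RQ. Its level in PTPRK.RQ was within the range of PTPRK KO, which is 0.66 ± 0.12 above the shift (edgeR adjusted p = 3.43e-04).

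CCDC170, a coiled-coil gene next to the oestrogen receptor gene, moved against the shift. It was at 1.85, 3.20, 3.56, 4.39 and 7.03 CPM in PTPRK KO, 4.79 to 11.5 in PTPRK, 15.1, 13.3, 8.17 and 7.89 in PTPRK.RQ and 4.51 to 7.65 in PTPRK.C1089S. All PTPRK.RQ tumours lay above all PTPRK KO tumours. The log2 fold change was 1.47 ± 0.29 and the departure 2.17 ± 0.28 (edgeR adjusted p = 6.41e-06), or 1.98 ± 0.30 from the 20 nearest genes (edgeR adjusted p = 4.43e-05). Relative to PTPRK it was 0.93 ± 0.26 above the shift (edgeR adjusted p = 0.0474), a call that was lost under 8 of the other settings and when any of 17 tumours was left out.

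EZR followed the shift in PTPRK.RQ and departed from it in PTPRK.C1089S. It was at 606 to 700 CPM in WT, 641 to 806 in PTPRK KO, 538 to 704 in PTPRK, 392 to 480 in PTPRK.RQ and 751 to 855 in PTPRK.C1089S. PTPRK.RQ was below all other tumours, and relative to PTPRK KO the gene was 0.01 ± 0.099 from the shift (edgeR adjusted p = 0.963). PTPRK.C1089S overlapped only PTPRK KO. Its departure was 0.41 ± 0.093 against PTPRK KO (edgeR adjusted p = 0.00259), 0.43 ± 0.089 against PTPRK (edgeR adjusted p = 0.00426) and 0.40 ± 0.10 against PTPRK.RQ (edgeR adjusted p = 0.0194). EZR-AS1, which overlaps EZR on the other strand, departed upwards in the last 2 of these as well, and since reads were counted without strand, reads of EZR in the part they share may have been counted for EZR-AS1. EZR-AS1 was at 2.52 to 8.18 CPM and its values are uncertain.

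Some genes departed downwards. RGS17, a regulator of G protein signalling, was at 4.19 ± 0.767 CPM (SD, n = 5) in PTPRK KO, 2.18 ± 0.506 (n = 5) in WT, 2.05 ± 0.793 (n = 6) in PTPRK, 1.26 ± 0.419 (n = 4) in PTPRK.RQ and 2.07 ± 0.395 (n = 5) in PTPRK.C1089S. It was 0.82, 1.03 and 0.78 below the shift in PTPRK, PTPRK.RQ and PTPRK.C1089S against PTPRK KO (edgeR adjusted p = 0.00423, 0.00294 and 0.0126). DLL1, a Notch ligand near the end of the arm whose reads overlap FAM120B, was at 8.37 ± 2.61 CPM (n = 5) in PTPRK KO and 4.15 ± 1.04 (n = 6) in PTPRK, 0.79 ± 0.19 below the shift (edgeR adjusted p = 0.00319). In PTPRK.RQ it was at 4.08 ± 0.96 (n = 4), and there its departure was −0.33 ± 0.21 (edgeR adjusted p = 0.286). CNKSR3, a scaffold of kinase signalling, and SLC22A3, an organic cation transporter, were 0.52 ± 0.12 and 0.49 ± 0.14 below the shift in PTPRK.RQ against PTPRK KO (edgeR adjusted p = 0.00381 and 0.0117).

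PSMB1 and PDCD2 departed from the shift of all genes, and their departure from their surroundings depended on the setting, as for AFDN. They were, in PTPRK.RQ relative to PTPRK KO, 0.35 ± 0.063 and 0.36 ± 0.06 below the shift of all 125 genes (edgeR adjusted p = 2.21e-04 and 8.85e-05). Relative to the 20 nearest genes both were at 0.02 (edgeR adjusted p = 0.894 and 0.896), but with 0.5 CPM both were at −0.21 (edgeR adjusted p = 0.079 and 0.0403). With the 20 nearest genes of higher level they were at −0.20 and −0.19 (edgeR adjusted p = 0.0679 and 0.0399). Relative to PTPRK, 2 genes departed in PTPRK.RQ. One was CCDC170 and the other was AGPAT4, an acyltransferase of phospholipid synthesis, at 0.80 ± 0.20 (edgeR adjusted p = 0.027), which was lost when any of 7 tumours was left out. AGPAT4 was at 2.20 to 6.27 CPM in PTPRK and 4.59 to 5.70 in PTPRK.RQ, which overlap.

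Several other genes departed from the shift of all 125 genes with the smallest p in a contrast. In PTPRK KO against WT, TULP4 was 0.32 ± 0.085 below the shift (edgeR adjusted p = 0.0476), and it did not pass relative to the 20 nearest genes (−0.26, edgeR adjusted p = 0.135) or when any of 16 tumours was left out. AL360169.3, the other gene to depart there, is of very low level. AL355312.5 was 0.43 ± 0.071 above the shift in PTPRK and 0.38 ± 0.074 above it in PTPRK.C1089S, both against PTPRK KO, but 0.18 and 0.08 above its 20 nearest genes. LRP11, 0.37 ± 0.073 above the shift in PTPRK.C1089S against PTPRK KO, was likewise only 0.05 above its nearest genes. C6orf120 was 0.54 ± 0.078 below the shift in the same contrast, and 0.22 below its nearest genes. Relative to the 20 nearest genes of higher level, the departures of AL355312.5, LRP11 and C6orf120 passed again. LRP11 lies within the span of AL355312.5 on the same strand, so the departures of both may rest on the same reads. AL049844.3 was 0.67 ± 0.12 above the shift in PTPRK.RQ against PTPRK KO (edgeR adjusted p = 2.68e-04) and 0.41 above its nearest genes (edgeR adjusted p = 0.0121). It overlaps LTV1 on the same strand, so they may share reads.

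Between PTPRK.C1089S and PTPRK, MAP3K4-AS1 was 0.82 ± 0.20 above the shift and SHPRH, a ubiquitin ligase of DNA damage tolerance, 0.51 ± 0.13 below it (edgeR adjusted p = 0.0105 and 0.012), and both also departed from their nearest genes. PHF10 was 0.28 ± 0.072 below the shift (edgeR adjusted p = 0.0144) but did not pass relative to its nearest genes. Between PTPRK.C1089S and PTPRK.RQ, AL159163.1 was 0.47 ± 0.084 above the shift (edgeR adjusted p = 0.00166) and 0.41 above its nearest genes (edgeR adjusted p = 0.0306). RNASET2 was 0.41 ± 0.087 above the shift and LTV1, a ribosome assembly factor, 0.46 ± 0.11 below it (edgeR adjusted p = 0.00743 and 0.016), and neither passed relative to the nearest genes. AL159163.1 overlaps RNASET2 on the same strand, so these genes may share reads.

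At the edges of the stretch the shift did not begin abruptly. Just outside its start, FUCA2 and PHACTR2 were −0.25 and −0.24 relative to WT in PTPRK.RQ, and just inside, AL049844.1 was at −0.26 and LTV1 at 0.07. At the other end TBP was at −0.38 and PDCD2 at −0.79, with no tested gene beyond. By the count minimum, AL023806.1, AL078581.2 and TTLL2 were just inside with 4 tumours at 10 counts or more, and UST, AL627422.2 and SMOC2 were among the genes just outside with 3.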

How the data were processed

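RNA was sequenced from 25 xenograft tumours. Per the study's methods, the authors trimmed reads with trim_galore, mapped them separately to GRCh38 and GRCm38 with hisat2 (HISAT2 2.1.0 in the submitters' processing notes), and counted exon overlaps per Ensembl gene in SeqMonk without strand; the values they deposited are raw counts. Reads shared by overlapping genes can count for both: 72 of the 125 tested genes overlap another expressed gene. Of 38179 table entries, 51 that repeated an identifier were left out. No reference sequence was used. RefSeq matched 94 of the 127 genes.

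One edgeR 4.0.16 fit in R 4.3.3 held all 25 tumours (TMM, filterByExpr, robust quasi-likelihood test, Benjamini-Hochberg over 18823 genes, threshold 0.05). The SE is the log2 fold change divided by the square root of F. All fold changes are from this fit. For departures, each distal 6q gene carried an offset equal to its tumour's shift. The pseudocount of the shift was 0.5 CPM at first and was changed to 0.01 CPM after all results under 0.5 CPM had been seen, because simulated shifts came out too small with 0.5 CPM. Values with 0.5 CPM are given for AFDN, and for the counts of departures where they changed. The members, lists and named genes were chosen with earlier results of these data known. The 5 departing genes with the smallest p per contrast and a mean log2 CPM of at least 2 were to be named, with AFDN, PTPRK, the genes at each end and the functional lists; other genes were named after their values were seen. Alternatives were DESeq2 1.42.0, its size factors, TMM without chromosome 6, no filter, 19 tumours without PTPRK.C1089S and PTPRK replicate 6, a replicate block, the 20 nearest genes, each tumour left out and those added later. Replicates of a group differed by more than counting error (chi-square per gene 13 to 113 over 51 pairs). Per the study's methods each mouse was injected once; the labels do not state that the cells of a group were cultured separately before injection.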

Additional observations from a re-analysis of the deposited data

Results flagged for a closer look

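Within groups of 4 to 6 tumours, 6 of 115 comparisons of a tumour's level with its group gave a tumour far from the others; chance alone gives about 1 in 20. PDCD2 in PTPRK KO replicate 4 was at 65.9 CPM, with the nearest tumour of the group at 80.5. SHPRH in PTPRK KO replicate 1 was at 13.5 CPM, with the nearest at 18. RAET1L in PTPRK replicate 1 was at 3.71 CPM, with the nearest at 6.29. MAP3K4-AS1 in PTPRK replicate 5 was at 5.73 CPM, with the nearest at 3.34. SAMD5 in PTPRK.C1089S replicate 1 was at 33.6 CPM, with the nearest at 43. LRP11 in PTPRK.C1089S replicate 2 was at 93.5 CPM, with the nearest at 85.8. PTPRK KO replicate 4 also had the smallest shift of its group, 0.13.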

How the results depend on the processing

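The median log2 fold changes kept their direction in every alternative run, except in PTPRK.C1089S against PTPRK, where the median lay between −0.02 and 0.02. The count of distal 6q genes that passed in PTPRK KO against WT was 11, and it was 21 with DESeq2, 5 with no filter on low counts, 19 in the 19 tumours without PTPRK.C1089S and PTPRK replicate 6, 19 with the replicate block; leaving out 1 tumour gave 3 to 18. The block was left out of the model because the replicate numbers showed little pairing of the tumours. The mean correlation of same-number deviations was 0.0603 over 46 pairs, and −0.0143 for other numbers. Of the 25 tumours, 8 correlated best with one of their own number. Pairing was not tested further. AFDN in PTPRK KO against WT stayed at 0.27 but no longer passed with the block, with DESeq2 size factors and with no filter; with 1 tumour left out it was 0.24 to 0.30 and no longer passed in 14 of 25 fits; in PTPRK.C1089S against PTPRK it was −0.18 to −0.10. In PTPRK.C1089S against PTPRK, 8 to 27 genes passed with 1 tumour left out.

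Departures in PTPRK KO against WT numbered 0 with no filter, 1 with 0.5 CPM and 1 with the 20 nearest genes, of any or of higher level, at either pseudocount, and 0 to 2 with 1 tumour left out. In PTPRK.RQ against PTPRK they numbered 1 with no filter, 1 in those 19 tumours and 4 with the 20 nearest genes and 0.5 CPM, and 0 to 4 with 1 tumour left out. In PTPRK.RQ against PTPRK KO they numbered 21 with the 20 nearest genes of higher level. With 1 tumour left out they numbered 7 to 30 in PTPRK.C1089S against PTPRK, the highest without PTPRK.C1089S replicate 4, and 2 to 20 in PTPRK.C1089S against PTPRK.RQ, the lowest without PTPRK.RQ replicate 1 and the highest without PTPRK.RQ replicate 2.

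Relative to the 20 nearest genes the sign turned for AFDN in PTPRK.C1089S against PTPRK KO (0.02) and was lost in PTPRK.RQ against PTPRK KO (0.00), and turned for PDCD2 (0.02) and PSMB1 (0.02) in PTPRK.RQ against PTPRK KO. The 0.5 CPM settings and the nearest genes of higher level were chosen after seeing the data.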
